A study of Homo sapiens with 24 samples.

Results

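The cell cycle and DNA replication genes described here are 48 named genes, 27 that act in G2 and mitosis and 21 that act at the G1/S transition and in S phase, taken by gene name from the 30142 genes on the array. The rule has no threshold on a measured value. FOXP1, a forkhead transcription factor, was silenced for 48 h in diffuse large B-cell lymphoma (DLBCL) lines with either of 2 Stealth siRNAs, siFOXP1_308 and siFOXP1_309, each delivered at 1 µM by nucleofection. The lines were DB and K422 of the germinal centre B-cell-like (GCB) subtype and HBL-1 and OCI-Ly3 of the activated B-cell-like (ABC) subtype, so each subtype is represented by 2 established cultures and not by patient samples. Each of 24 two-colour Agilent arrays set siFOXP1 RNA (Cy3) against RNA of the same line treated with a low-GC non-targeting control siRNA, siCtrl (Cy5), with 3 replicates per line and siRNA. Dyes were not swapped, so a dye effect and the effect of silencing cannot be told apart for any gene.

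Proliferating cells express these genes in waves. The E2F factors switch on G1/S genes such as the minichromosome maintenance (MCM) helicase subunits, PCNA and the enzymes of nucleotide supply, and later B-MYB (MYBL2) and FOXM1, with the MuvB core complex, switch on the cyclins, kinases and kinetochore proteins of mitosis. E2F sites mark the promoters of the first wave, and a CHR element together with CCAAT boxes bound by NF-Y marks those of the second. The array measures RNA of whole cultures, so fewer cells in a phase and less RNA per cell cannot be told apart.

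RefSeq promoters (GRCh38.p14, 250 bases before to 50 after the start) were found for 40 of the 48 members, 21 mitotic and 19 S phase, with 51 promoters in all. AURKA, BIRC5, TTK, TPX2, UBE2C, FOXM1, MCM4 and MCM5 had no entry. The 150 bases before the start follow for members on which the results turn: E2F2, CDC25A and TYMS, which were lower in HBL-1 on FOXP1 silencing, BLM, which was higher there, NEK2 and CENPF, which were lower in HBL-1 than in the other lines, and CCNB2 and PLK1, which had the greatest rises in K422. Capitals mark GCGGGAA or GCGCCAAA (E2F), TTTGAA (CHR) and CCAAT (NF-Y) on either strand, so that TTTGGCGC and ATTGG are the reverse-strand forms. No motif lies within another.
E2F2: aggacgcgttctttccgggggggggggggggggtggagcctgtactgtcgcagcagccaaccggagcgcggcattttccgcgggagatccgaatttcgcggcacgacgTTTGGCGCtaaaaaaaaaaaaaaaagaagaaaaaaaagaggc
CDC25A: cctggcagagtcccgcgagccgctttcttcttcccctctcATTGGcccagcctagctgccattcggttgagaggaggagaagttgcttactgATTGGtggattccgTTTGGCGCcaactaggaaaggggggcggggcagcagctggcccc
TYMS: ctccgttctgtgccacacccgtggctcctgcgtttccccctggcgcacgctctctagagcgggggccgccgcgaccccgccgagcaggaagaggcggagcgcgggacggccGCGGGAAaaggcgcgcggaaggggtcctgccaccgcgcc
BLM: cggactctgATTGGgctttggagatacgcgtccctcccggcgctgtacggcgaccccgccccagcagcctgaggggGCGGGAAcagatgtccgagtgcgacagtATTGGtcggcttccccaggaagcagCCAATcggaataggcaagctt
NEK2: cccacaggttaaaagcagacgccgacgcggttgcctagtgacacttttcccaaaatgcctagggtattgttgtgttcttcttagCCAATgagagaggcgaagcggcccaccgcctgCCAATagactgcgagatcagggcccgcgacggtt
CENPF: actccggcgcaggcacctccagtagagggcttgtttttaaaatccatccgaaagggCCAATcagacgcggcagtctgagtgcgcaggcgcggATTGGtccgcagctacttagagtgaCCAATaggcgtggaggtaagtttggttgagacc
CCNB2: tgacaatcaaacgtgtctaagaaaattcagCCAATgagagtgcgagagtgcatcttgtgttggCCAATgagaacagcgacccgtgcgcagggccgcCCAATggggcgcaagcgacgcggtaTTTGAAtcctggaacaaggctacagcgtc
PLK1: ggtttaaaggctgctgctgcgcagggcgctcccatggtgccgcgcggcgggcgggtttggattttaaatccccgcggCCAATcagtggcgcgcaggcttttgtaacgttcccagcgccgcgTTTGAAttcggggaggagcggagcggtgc

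These stretches lie at chr1:23531234-23531383 (E2F2, minus strand), chr3:48188418-48188567 (CDC25A, minus strand), chr18:657503-657652 (TYMS, plus strand), chr15:90717196-90717345 (BLM, plus strand), chr1:211675622-211675771 (NEK2, minus strand), chr1:214603045-214603194 (CENPF, plus strand), chr15:59104996-59105145 (CCNB2, plus strand) and chr16:23678739-23678888 (PLK1, plus strand). The E2F motif of E2F2 began 42 bases before the start and that of CDC25A 44 bases before it, both on the reverse strand, while that of TYMS began 39 and that of BLM 74 bases before it on the forward strand. CCNB2 and PLK1 each held the CHR motif at 29 bases before the start. NEK2 and CENPF held no E2F or CHR motif in this stretch and had 2 and 3 CCAAT motifs.

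Over the whole 300-base windows the groups differed in the letters they held. An E2F motif was present in 53.8% of the 26 S phase promoters, in 16% of the 25 mitotic promoters and in 7.13% of all 35116 promoters of the table. TTTGAA was present in 56% of mitotic, 3.85% of S phase and 15.2% of all promoters. CCAAT was present in 80% of mitotic, 73.1% of S phase and 34.6% of all promoters. The forkhead motif GTAAACA was in 0 of the 25 mitotic promoters, in 7.69% of the S phase promoters and in 3.42% of all promoters. Those S phase promoters belong to 1 of 19 genes. All these shares count alternative promoters of a gene separately. These matches describe the letters in the windows and no binding was measured.

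FOXP1 itself fell in every line, on each of 6 arrays, with mean log2 changes of -1.96 in OCI-Ly3, -1.74 in HBL-1, -1.34 in K422 and -2.0 in DB. The fall was greater with siFOXP1_309 than with siFOXP1_308 in each line, from -2.70 against -1.30 in DB to -1.76 against -0.91 in K422. The B-cell markers CD79A, CD79B, MS4A1 and PAX5 were well above background in the siCtrl channel of all lines. MME was above background in DB and K422 only, and IRF4 and CCND2 in HBL-1 and OCI-Ly3 only. LMO2, MYBL1 and BCL6 were also above background on at least 4 of 6 arrays of each ABC-DLBCL line. BATF and FUT8 were above it in DB and K422, and ENTPD1 in DB. Of the T-cell markers, CD3G was high in K422 (log2 level 12.8) and not above background in the others, CD3E was above it on 6 of 6 arrays of K422, HBL-1 and OCI-Ly3 (levels 5.33 to 5.85), and CD2 on at most 3 arrays of a line. Of the myeloid markers, CSF1R was above it on 6 of 6 arrays of every line (levels 5.17 to 7.72), CD14 on 0 to 6, and LYZ on at most 1. Their part in the results was not tested. On single arrays 57.3% to 64.5% of probes passed the background test. The 48 members passed it in each of the 2 channels on all 24 arrays, and 1 of their values, an outlier spot of MCM7 in K422, was left out.

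Values below are log2(siFOXP1/siCtrl), so that negative values are lower on silencing. A member was called when the Benjamini-Hochberg adjusted p of limma over all genes was under 0.05 and the log2 change was at least 0.5 (1.41-fold), and counts without the limit on size are given beside it. In HBL-1, 9 of 48 members were called lower and 0 higher, beside 4.17% of all genes lower and 5.73% higher. In K422, OCI-Ly3 and DB, 0 members were called in either direction. The shares of all genes called lower and higher there were 2.1% and 2.34% in K422, 1.62% and 2.8% in OCI-Ly3, and 0.829% and 1.33% in DB. At an unadjusted p under 0.05 in limma, 34 members passed in HBL-1, 23 in OCI-Ly3, 22 in K422 and 12 in DB. Of the 13258 genes that, like the members, were above background in each channel on all arrays, 8338, 5990, 6364 and 5172 passed in these lines. The methods' t-test, an ordinary test per gene with the same limit on size, gave 9 members lower in HBL-1 and 0 in the others. No member mean of the other lines reached 0.5 in size, so the 0 there followed from that limit.

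**Figure D1:**
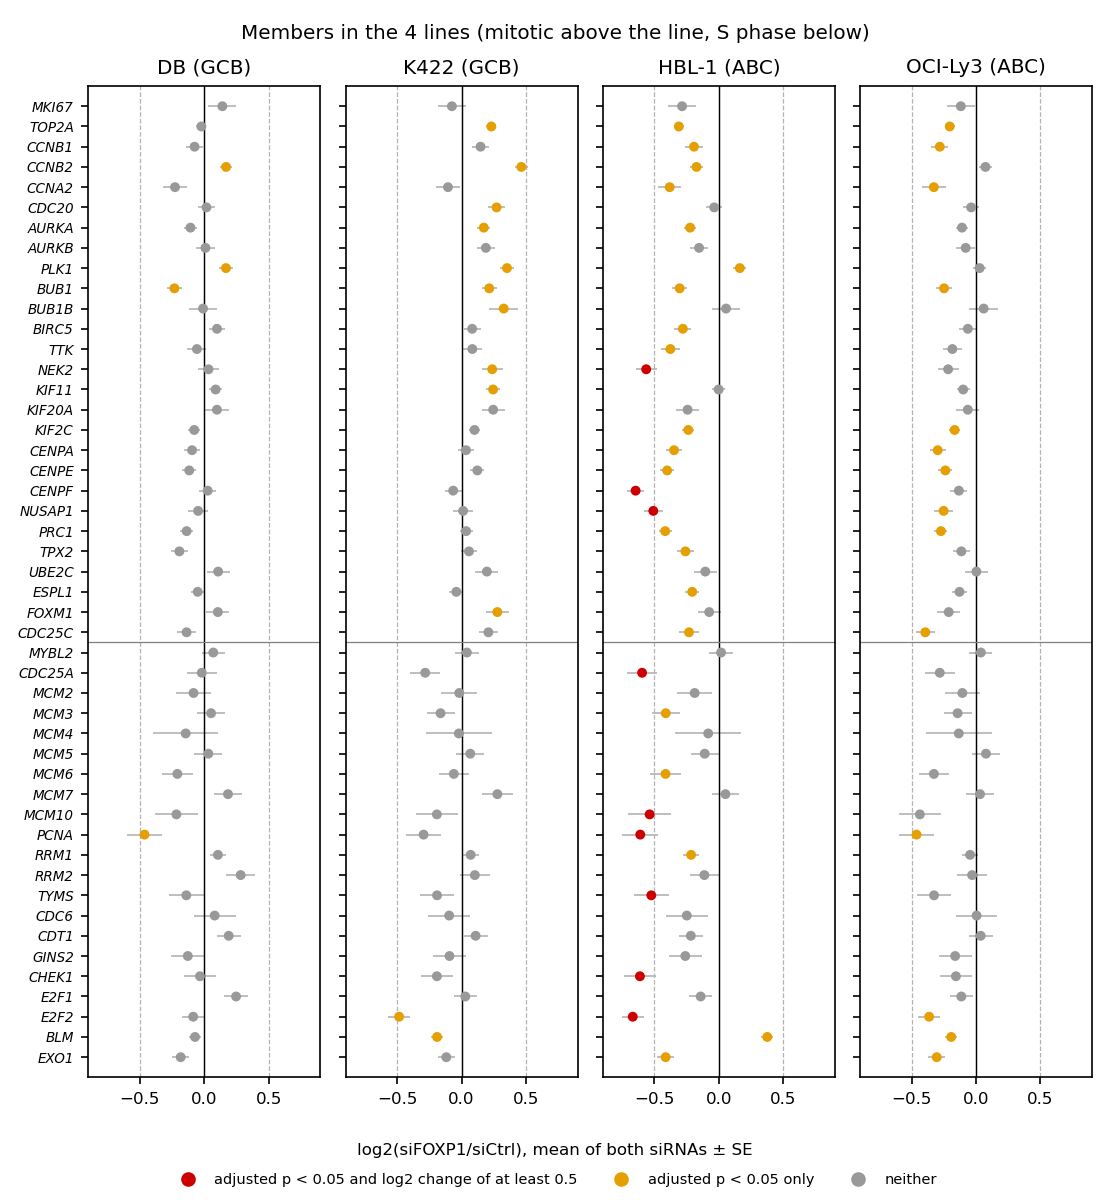
Log2(siFOXP1/siCtrl) of each of the 48 members (rows) in the 4 lines (panels), as the mean of both siRNAs with the SE of the limma fit over all arrays. Red points pass both limits, orange points the adjusted p only, and dashed lines mark a log2 change of 0.5; the 9 red points are all in HBL-1.

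In HBL-1 the members called lower were the S phase members E2F2, CHEK1, PCNA, CDC25A, MCM10 and TYMS and the mitotic members CENPF, NEK2 and NUSAP1. Among the 13258 bright genes, those that like the members passed the background test in each channel on all arrays, 4.03% were called lower. With normexp background and median centring, which lowers the median of those genes to -0.18 in this line, 23 members were called lower. The shares of all genes and of bright genes called with that scaling were not counted. The 23 therefore cannot be set against the 4.03%.

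E2F2, an E2F family activator of G1/S genes, was at -0.51, -0.57 and -0.35 on the siFOXP1_308 arrays and at -0.89, -0.77 and -0.91 on the siFOXP1_309 arrays of HBL-1. All 6 values were below 0, and the 3 of siFOXP1_309 were all lower than those of siFOXP1_308. The mean was -0.67 (SE 0.0867, limma adjusted p = 1.11e-05). The 2 probes of E2F2 differed: the dimmer, also well above background on 24 of 24 arrays, gave -0.11 in HBL-1, and the mean over probes (-0.39) missed the limit on size. CENPF, a kinetochore protein of late G2 and mitosis, ranged from -0.92 to -0.41 with a median of -0.64 (mean -0.65, SE 0.0653, limma adjusted p = 8.17e-07), and its other probe gave -0.64. NEK2, a kinase of centrosome separation, was at -0.62, -0.42 and -0.46 with siFOXP1_308 and at -1.07, -0.30 and -0.51 with siFOXP1_309. Its mean of -0.56 (SE 0.0808, limma adjusted p = 3.04e-05) moved to -0.45, under the limit on size, without siFOXP1_309 replicate 1, and its other probe gave -0.80. NUSAP1, which binds spindle microtubules, leaned on the same array, at -1.09 there and between -0.59 and -0.25 on the other 5; its mean of -0.51 became -0.41 without it and -0.49 without siFOXP1_308 replicate 1.

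PCNA, the sliding clamp of DNA polymerases, was at -0.44, -0.36 and -0.39 with siFOXP1_308 and at -0.74, -0.76 and -0.96 with siFOXP1_309, so that the arrays of the siRNAs did not overlap (mean -0.61, SE 0.139, limma adjusted p = 0.00225). CHEK1, the kinase that restrains the cycle when replication stalls, ranged from -1.02 to -0.23 (mean -0.61, SE 0.122, adjusted p = 0.000705), and CDC25A, the phosphatase that activates CDK2, from -0.86 to -0.35 (mean -0.60, SE 0.119, adjusted p = 0.000716). These were below 0 on 6 of 6 arrays. The dimmer probe of CDC25A gave -0.27, and the mean over its probes, -0.43, missed the limit on size. MCM10, which acts in loading polymerase at origins, ranged from -0.77 to -0.29 (mean -0.54, SE 0.165, adjusted p = 0.0181), and its call was lost without siFOXP1_308 replicate 1 (adjusted p = 0.0624) or siFOXP1_309 replicate 1 (adjusted p = 0.0528). TYMS, the thymidylate synthase, ranged from -0.77 to -0.31 (mean -0.52, SE 0.134, adjusted p = 0.00539). With normexp and loess, TYMS (-0.47) and NUSAP1 (-0.38) missed the limit on size.

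**Figure D2:**
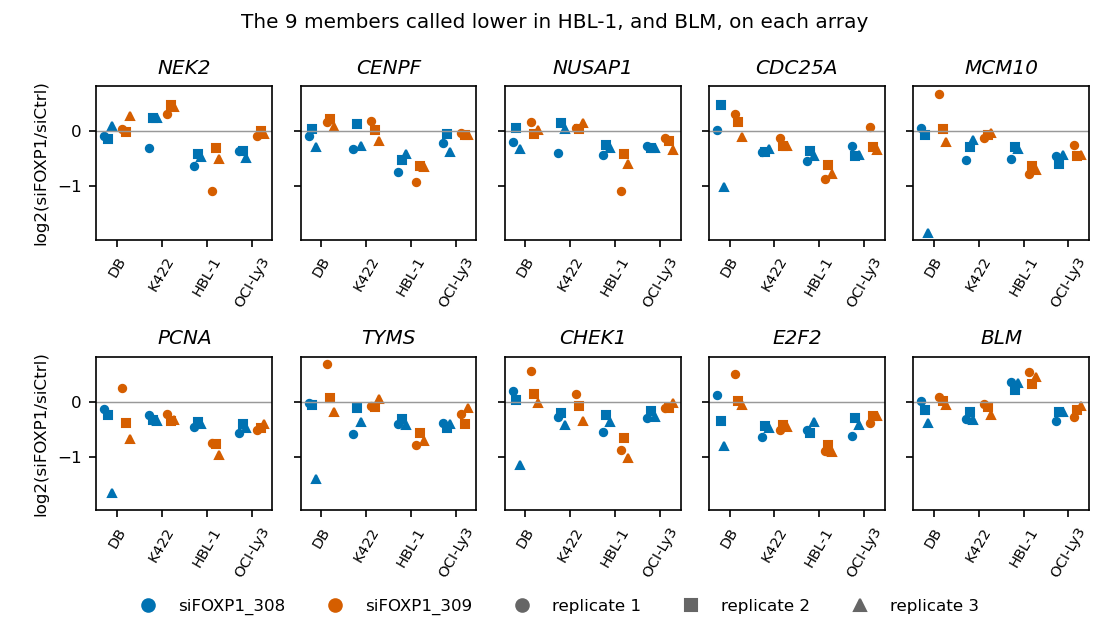
Log2(siFOXP1/siCtrl) on each array for the 9 members called lower in HBL-1 and for BLM, by line, with siFOXP1_308 in blue and siFOXP1_309 in orange and a symbol for each replicate. All 6 HBL-1 arrays are below 0 for the 9 members and above 0 for BLM, and the DB arrays of the S phase members spread most.

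Most other members of HBL-1 were below 0 by less. Without the limit on size, 28 of 48 members were lower (18 mitotic and 10 S phase), beside 15% of all genes and 25.9% of bright genes, and 2 were higher, beside 16.2% of all genes. The median change was -0.24 over the mitotic and -0.25 over the S phase members, with a median of 0 over all genes. PRC1, which bundles the central spindle, had a mean of -0.42 and CENPE, a kinetochore motor, of -0.40, with every array below 0. The helicase subunits were uneven: MCM3 (-0.41) and MCM6 (-0.41) were lower at an adjusted p of 0.00657 and 0.0118, whereas MCM2 (-0.19), MCM4 (-0.08), MCM5 (-0.11) and MCM7 (0.05) did not pass the test.

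The members higher in HBL-1 were PLK1 and BLM. BLM, a RecQ helicase of recombination repair, was at 0.36, 0.21 and 0.34 with siFOXP1_308 and at 0.54, 0.34 and 0.47 with siFOXP1_309, above 0 on 6 of 6 arrays (mean 0.38, SE 0.0469, limma adjusted p = 7.27e-06). In K422 (mean -0.19, adjusted p = 0.00739) and OCI-Ly3 (-0.19, adjusted p = 0.00722) every array of BLM was below 0. PLK1, the kinase of mitotic entry and exit, had a mean of 0.16 (adjusted p = 0.0217) in HBL-1. Both depend on the scaling: with normexp and median centring BLM was at 0.063 (adjusted p = 0.758) and PLK1 at -0.24 (adjusted p = 0.318) in HBL-1. Among the transcription factors, E2F1 (-0.14, adjusted p = 0.283), FOXM1 (-0.07, adjusted p = 0.65) and MYBL2 (0.02, adjusted p = 1) did not pass the test in HBL-1, nor did the proliferation marker MKI67 (-0.29, adjusted p = 0.0538), although it was below 0 on 6 of 6 arrays.

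In K422, the members that passed were mostly mitotic and higher. With no limit on size, 10 of 27 mitotic members were higher and 0 lower, beside 9.81% of all genes higher and 9.59% lower, and 2 S phase members were lower. Among bright genes, 17% were higher and 16.6% lower. The median was 0.17 over the mitotic members and -0.09 over the S phase members. The count of 10 fell to 6 without siFOXP1_308 replicate 2 or 3 or siFOXP1_309 replicate 1 or 3 of K422, each left out singly, and to 6 with the slide as a block, and the 2 lower became 4 without siFOXP1_308 replicate 3 of DB.

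CCNB2, a B-type cyclin, was at 0.16, 0.50 and 0.31 with siFOXP1_308 and at 0.65, 0.62 and 0.53 with siFOXP1_309 in K422, above 0 on 6 of 6 arrays (mean 0.46, SE 0.0489, limma adjusted p = 4.6e-06). It would be called at 0.51 without siFOXP1_308 replicate 1. PLK1 ranged from 0.12 to 0.51 (mean 0.35, adjusted p = 0.000116) and BUB1B, a spindle checkpoint kinase, from 0.20 to 0.47 (mean 0.33, adjusted p = 0.0482). FOXM1 ranged from 0.18 to 0.43 (mean 0.28, adjusted p = 0.0382). With the replicate number as a block, BUB1B (adjusted p = 0.0724), FOXM1 (0.0855) and NEK2 (0.077) no longer passed. The others that passed were TOP2A (0.23), CDC20 (0.27), AURKA (0.17), BUB1 (0.21) and KIF11 (0.24). The dimmer probe of KIF11 gave 0.07.

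The K422 result depends on the scaling. With normexp background and median centring in place of the Feature Extraction loess ratios, 0 mitotic members passed, 1 S phase member was called lower, and the mitotic median was -0.01, while the median of the 13258 bright genes stood at -0.11, so that the members lay 0.10 above it, against 0.17 above it in the ratios used here. The array siFOXP1_308 replicate 1 stood apart, with a mitotic median of -0.07 against 0.15 to 0.23 on the other 5.

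The S phase members that passed in K422 were E2F2 and BLM. E2F2 was at -0.63, -0.44 and -0.47 with siFOXP1_308 and at -0.51, -0.41 and -0.45 with siFOXP1_309, so that the siRNAs overlapped and every array was below 0 (mean -0.49, SE 0.0867, limma adjusted p = 0.000656). Its dimmer probe gave 0.00259. PCNA (-0.30, adjusted p = 0.163) and CDC25A (-0.28, adjusted p = 0.113) were below 0 on 6 of 6 arrays and did not pass. E2F1 (0.03), MYBL2 (0.04) and MKI67 (-0.08) did not pass.

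In OCI-Ly3, 14 members were lower with no limit on size (10 mitotic and 4 S phase) and 0 higher, beside 9.12% of all genes lower and 9.65% higher. Among bright genes, 16.2% were lower. The median was -0.13 over the mitotic and -0.14 over the S phase members. With normexp and median centring the medians were -0.23 and -0.25 and 0 members passed.

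PCNA was at -0.55, -0.39 and -0.46 with siFOXP1_308 and at -0.51, -0.47 and -0.39 with siFOXP1_309 in OCI-Ly3 (mean -0.46, SE 0.139, limma adjusted p = 0.0262). The 2 siRNAs overlapped fully. CDC25C, the phosphatase that activates CDK1, ranged from -0.71 to -0.02 (mean -0.39, adjusted p = 0.00122) and MCM10 from -0.60 to -0.26 (mean -0.44, adjusted p = 0.0782). E2F2 was at -0.36 (adjusted p = 0.00626), with a dimmer probe at -0.02, and EXO1, an exonuclease of repair, at -0.31 (adjusted p = 0.00356). PRC1 (-0.27), CENPA (-0.30), the centromeric histone, and CCNA2 (-0.33), the S and G2 cyclin, were below 0 on every array. The highest means were those of MCM5 (0.08), CCNB2 (0.07) and BUB1B (0.06), none of which passed. FOXM1 (-0.21, adjusted p = 0.121), E2F1 (-0.11), MYBL2 (0.04) and MKI67 (-0.12) did not pass either.

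In DB, 2 members were lower (BUB1 and PCNA) and 2 higher (CCNB2 and PLK1) with no limit on size, beside 5.96% of all genes lower and 6.17% higher. Leaving out each DB array in turn gave 0 lower (without siFOXP1_309 replicate 3) to 5 lower (without siFOXP1_308 replicate 2). The count higher became 0 without siFOXP1_308 replicate 1 or 2 or siFOXP1_309 replicate 1, 1 without siFOXP1_309 replicate 2 or 3, and 8 without siFOXP1_308 replicate 3. The medians were -0.02 over the mitotic and -0.03 over the S phase members. BUB1 was below 0 on 6 of 6 arrays (mean -0.23, limma adjusted p = 0.0148). PCNA was at -0.12, -0.23 and -1.65 with siFOXP1_308 and at 0.25, -0.37 and -0.68 with siFOXP1_309 (mean -0.46, adjusted p = 0.0355, and 0.0576 with the replicate block). It was called, at -0.60 to -0.57, without siFOXP1_308 replicate 1 or 2 or siFOXP1_309 replicate 1, and was at -0.22 without siFOXP1_308 replicate 3. CCNB2 (0.17) and PLK1 (0.17) had adjusted p-values of 0.0663 and 0.0787 with that block. The greatest means above 0 were those of RRM2 (0.28), a subunit of ribonucleotide reductase, E2F1 (0.25) and CDT1 (0.19), the licensing factor, and among those below 0 CCNA2 was at -0.23; none of these passed. FOXM1 (0.10), MYBL2 (0.07), MKI67 (0.14) and E2F2 (-0.09) did not pass.

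The S phase members of DB spread far more between arrays than those of the other lines. The median SD within a line and siRNA was 0.54 over the S phase members in DB, against 0.0981 in OCI-Ly3, 0.11 in HBL-1 and 0.0954 in K422, while for the mitotic members of DB it was 0.194. All 21 S phase members were below 0 on the array of siFOXP1_308 replicate 3 (median -0.81) and 0 of 21 on that of siFOXP1_309 replicate 1 (median 0.67). Without siFOXP1_308 replicate 3, the S phase median of DB became 0.18 and 8 members were higher with no limit on size, 5 of them S phase, and 1 was lower.

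**Figure D3:**
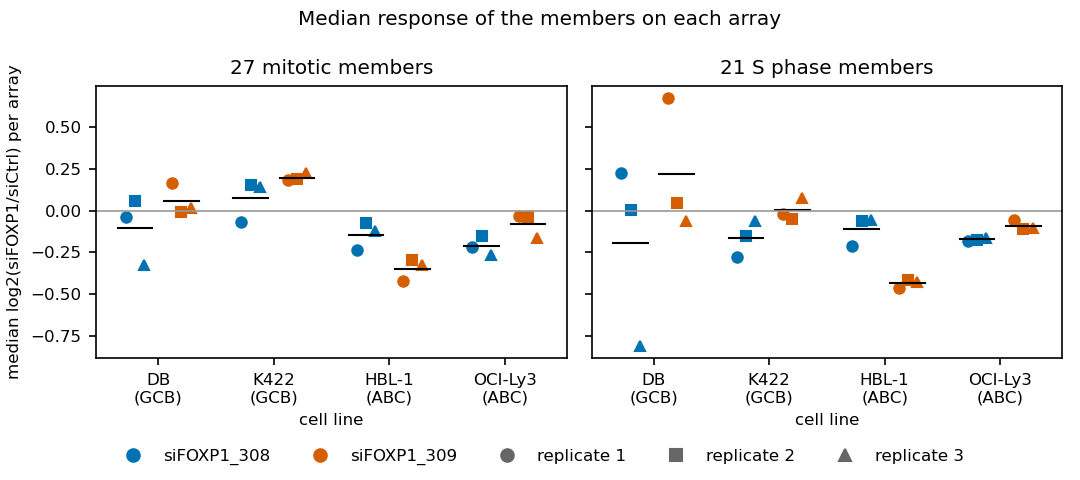
Median log2(siFOXP1/siCtrl) of the 27 mitotic (left) and 21 S phase members (right) on each of the 24 arrays, by line, siRNA (colour) and replicate (symbol), with black bars for the mean of 3 arrays. The DB arrays run from -0.81 to 0.67 for the S phase members, and the 6 HBL-1 and 6 OCI-Ly3 arrays are below 0 in both panels.

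The channels behind these ratios differed by replicate. In siCtrl-treated DB cells of replicate 1, the S phase members lay at -0.73 and -0.76 (log2) from the mean of the line on the 2 arrays, and 0.34 to 0.38 above it in replicates 2 and 3. E2F2, for example, had a log2 level of 13.16 in siCtrl replicate 1 and of 14.40 and 14.24 in replicates 2 and 3, and MCM4 of 9.38 against 11.38 and 11.54, while CCNB2 was at 13.94, 14.06 and 13.99. In the siFOXP1 channel, S phase members were at -0.45 and -0.14 in replicate 1, at 0.40 and 0.34 in replicate 2, and at -0.47 with siFOXP1_308 but 0.37 with siFOXP1_309 in replicate 3. In the other lines the S phase members lay between -0.28 and 0.22 in both channels on every array. The mitotic members of K422 were lower in replicate 1 in both channels, at -0.29 and -0.26 in siCtrl and at -0.50 and -0.18 in siFOXP1. The cause of these differences was not tested.

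**Figure D4:**
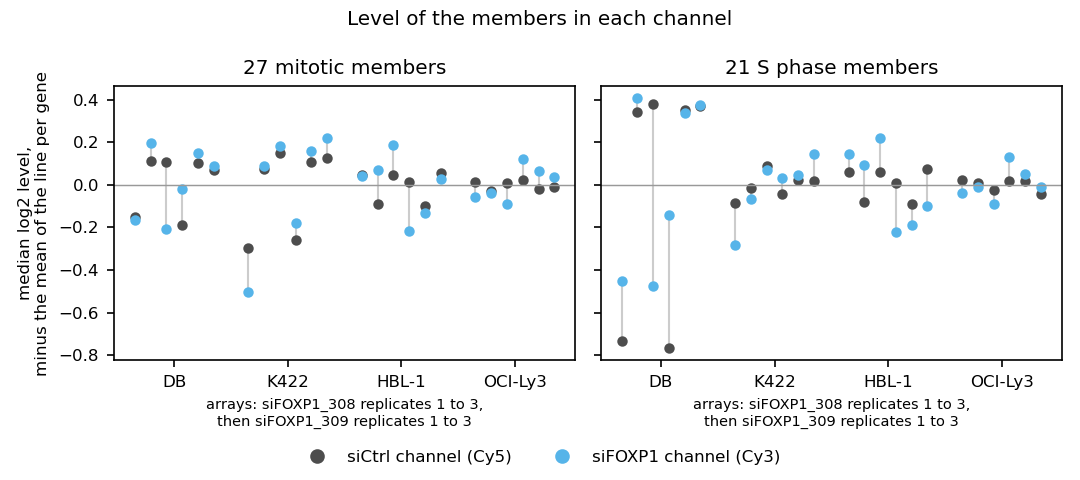
Median log2 level of the mitotic (left) and S phase members (right) in the siCtrl (grey) and siFOXP1 (blue) channel of each array, after subtracting each gene's mean over the 6 arrays of its line and channel; lines join the channels of an array. DB siCtrl replicate 1 lies at -0.73 and -0.76 for the S phase members on its 2 arrays, and the siFOXP1_308 array of DB replicate 3 at -0.47 in the siFOXP1 channel.

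The DB spread enters the pooled error of every line, and with the 6 DB arrays left out of the fit, an alternative chosen after seeing the data, 8 members were lower and 15 higher in K422, and 20 were lower in OCI-Ly3 and 37 in HBL-1, with no limit on size. The shares of all genes in that fit rose as well, to 12.1% lower and 12% higher in K422, 11.7% lower in OCI-Ly3 and 17.4% lower in HBL-1. The count past the limit on size stayed at 9 in HBL-1 and at 0 in the others. Leaving out DB does not change the means of the other lines, so these counts could not rise.

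The lines were compared through the difference of their silencing effects. Between HBL-1 and the mean of the other lines, 2 members were called lower, NEK2 (difference -0.58, SE 0.0933, limma adjusted p = 0.000384) and CENPF (-0.59, SE 0.0754, adjusted p = 4.88e-05), and BLM was called higher (0.53, SE 0.0542, adjusted p = 4.19e-06). Over all genes 2.14% were lower and 2.54% higher in this comparison. Without siFOXP1_309 replicate 1 of HBL-1 the difference of NEK2 was -0.47 and missed the limit on size. With normexp and median centring, CENPF (-0.70, limma adjusted p = 0.0815) and BLM (0.33, limma adjusted p = 0.442) were not called in this comparison. Between HBL-1 and K422, which were scanned together, 7 mitotic members were called lower, beside 2.03% of all genes, and 1 S phase member, BLM (0.57, SE 0.0664), was called higher, beside 2.31% of all genes. The 6 greatest of these falls were those of NEK2 (-0.80, SE 0.114), CCNB2 (-0.64, SE 0.0691), CENPF (-0.58, SE 0.0924), TOP2A (-0.54, SE 0.0562), CENPE (-0.52, SE 0.0781) and NUSAP1 (-0.52, SE 0.107), and BUB1 was at -0.52. TOP2A, the topoisomerase that resolves sister chromatids, was above 0 on 6 of 6 arrays of K422 and below 0 on 6 of 6 of HBL-1. NEK2 was above 0 on 5 of 6 arrays of K422. The count of 7 became 4 without siFOXP1_309 replicate 1 of HBL-1, 4 with normexp and loess and 1 with normexp and median centring.

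Between the subtypes, NEK2 was the only member called, lower in the ABC-DLBCL lines (difference -0.52, SE 0.0808, limma adjusted p = 0.000477), beside 0.866% of all genes lower and 1.4% higher. The difference was -0.47 without siFOXP1_309 replicate 1 of HBL-1, and with the 4 line means as the samples its adjusted p was 0.935. With normexp it was not called under either centring. With no limit on size, 19 members were lower, beside 3.77% of all genes, and 1 was higher, beside 4.52%. The within-scan differences of NEK2 were -0.80 between HBL-1 and K422 and -0.25 between OCI-Ly3 and DB, and the latter was not called. Between OCI-Ly3 and DB no member was called, beside 1.43% of all genes in either direction, and 9 passed at an unadjusted p under 0.05 in limma. Of the 13258 bright genes, 2254 passed at that unadjusted p. No member was called between DB, K422 or OCI-Ly3 and the mean of the other lines, beside 1.76%, 2.19% and 1.82% of all genes called. At an unadjusted p under 0.05, 11, 25 and 8 members passed, beside 4133, 3346 and 3340 of the bright genes.

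Of the 48 members, 13 had a mean below 0 in all 4 lines, among them PCNA, MCM6, MCM10, TYMS, CHEK1, CDC25A, E2F2 and CCNA2, and 11 of the 13 are S phase members. With normexp and loess 12 members, 11 of them shared with these, had means below 0 in all 4 lines, and with normexp and median centring 31, including the 13. The signs in DB leaned on siFOXP1_308 replicate 3, on which all 21 S phase members were below 0. Without that array the DB means were 0.028 for E2F2, -0.22 for PCNA and -0.08 for CCNA2, and the S phase median of DB was 0.18. CHEK1, for example, was at -1.13 on that array and between -0.02 and 0.56 on the other DB arrays. The other DB arrays also averaged above 0 for CDC25A, MCM2, MCM4, MCM10, TYMS and GINS2. They averaged below 0 for MCM6, EXO1 and ESPL1. For most of the 13, a mean below 0 in all 4 lines therefore rested on that array. PCNA was lower with no limit on size in DB, HBL-1 and OCI-Ly3, and E2F2 in K422, HBL-1 and OCI-Ly3. The lines share no samples.

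The sign of the median difference between the 2 siRNAs was not the same in all lines. In HBL-1, 46 of 48 members had a lower mean with siFOXP1_309 than with siFOXP1_308, and 15 were called lower with siFOXP1_309 alone against 2, NEK2 and CENPF, with siFOXP1_308 alone. Over all genes 4.84% were called lower with siFOXP1_309 alone and 2.59% with siFOXP1_308 alone. In DB, K422 and OCI-Ly3, 46, 47 and 44 members had a higher mean with siFOXP1_309. Of the 13258 bright genes, 6642, 6481 and 6765 were higher in these lines, and 6981 were lower in HBL-1. The members share the same arrays, so these are not counts of independent observations. The S phase median was -0.31 for siFOXP1_309 minus siFOXP1_308 in HBL-1, against 0.40 in DB, 0.15 in K422 and 0.08 in OCI-Ly3. In OCI-Ly3, 12 members were lower with siFOXP1_308 alone and 0 with siFOXP1_309 alone, with no limit on size, beside 5.71% and 3.19% of all genes.

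No single member passed the test of the siRNAs against each other. In each line 0 of 48 members passed the limma test of siFOXP1_309 against siFOXP1_308, beside 0.192% of all genes called in OCI-Ly3, 0.173% in HBL-1, 0.159% in K422 and 0.302% in DB, and at an unadjusted p under 0.05 there were 5, 10, 3 and 9 members. Of the 13258 bright genes, 701, 899, 897 and 1957 passed at that unadjusted p. The difference of the siRNA difference between HBL-1 and the other lines, a comparison added after the values were seen, was below 0 for 47 of 48 members (median -0.34 over the mitotic and -0.56 over the S phase members), with 0 members called beside 0.0597% of all genes and 23 at an unadjusted p under 0.05. For this difference 6826 of the bright genes were below 0 and 1169 passed at the unadjusted p. With the replicate block 1 member was called, EXO1 (-0.66, SE 0.129, adjusted p = 0.0371), and TOP2A (-0.41, SE 0.0798, adjusted p = 0.0339) passed without the limit on size.

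**Figure D5:**
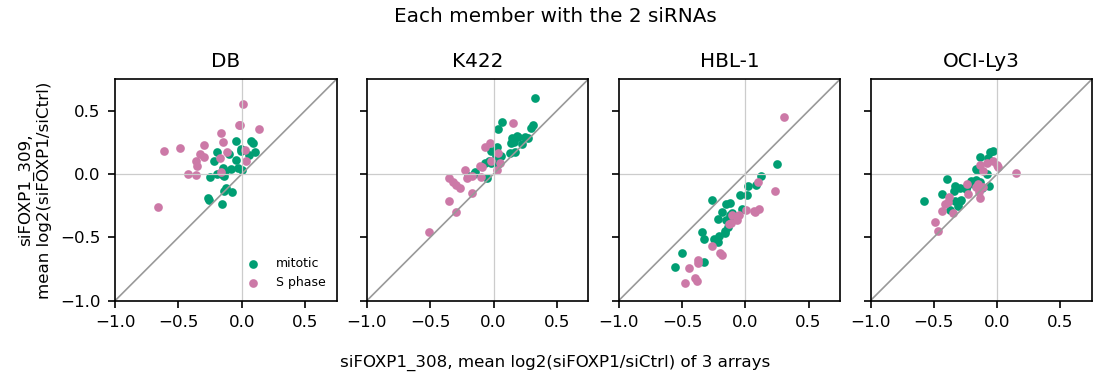
Mean log2(siFOXP1/siCtrl) of 3 arrays with siFOXP1_308 (x axis) and siFOXP1_309 (y axis) for each mitotic (green) and S phase (pink) member, with a panel per line and the line of equality in grey. In HBL-1 46 of 48 points lie under the line, and in DB, K422 and OCI-Ly3 46, 47 and 44 lie above it.

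Other genes of the programme were lower in HBL-1 too, from lists chosen by name. Of 52 other mitotic genes 15 were called lower and 0 higher, with a median of -0.34, and of 61 other replication and repair genes 11 were called lower and 0 higher, with a median of -0.29, beside 4.17% of all genes and 4.03% of bright genes called lower. KIF14, a kinesin of cytokinesis, was at -0.92, MAD2L1, a spindle checkpoint protein, at -0.77, POLE2, a subunit of polymerase epsilon, at -0.88 and E2F8, a repressor of the E2F family, at -0.82. In OCI-Ly3, KIF14 (-0.63), POLE2 (-0.51) and ATAD2 (-0.51) were called lower and none of the others, beside 1.62% of all genes. K422 had KPNA2 (0.50) called higher, beside 2.34% of all genes, and DB had POLE (0.50), beside 1.33%. With no limit on size, 9 of the 52 other mitotic genes were higher in K422 (17.3%) and 4 lower (7.69%), with a median of 0.03. The shares of bright genes there were 17% higher and 16.6% lower.

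Control-treated lines differed in the level of some members. Levels are log2 siCtrl signal after Aquantile normalization, with the 2 arrays of a replicate number averaged and counted as 1 sample, 3 per line. Whether those arrays share one siCtrl RNA is not given in the sources used here. Lines were tested within a scan. Between OCI-Ly3 and DB, 9 members were called higher and 12 lower, beside 17.6% and 21.9% of all genes. E2F2 had the greatest difference, at a mean of 11.57 in OCI-Ly3 and 13.93 in DB, a difference of -2.37 (SE 0.273, limma adjusted p = 2.95e-05). CDC25C (-1.85), KIF2C (-1.27), CDT1 (-1.16), MCM6 (-1.16) and MKI67 (-1.01) were lower too. MCM5 (1.72), CCNA2 (0.93), CDC25A (0.93), NUSAP1 (0.86), MCM2 (0.85) and CENPA (0.81) were higher. Without DB replicate 1, whose S phase levels stood apart, 6 were higher and 17 lower. MCM2, for example, was at 12.23 in that replicate and at 13.40 and 13.71 in the other DB controls, against a mean of 13.96 in OCI-Ly3.

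Between HBL-1 and K422, 3 members were called higher, beside 17.3% of all genes, and 10 lower, beside 21.9%. The higher ones were MYBL2 (1.42, SE 0.163), BLM (1.15, SE 0.13) and KIF11 (0.93, SE 0.16). BLM, which rose on silencing in HBL-1, was at 12.91, 12.98 and 12.72 in the HBL-1 controls and at 11.61, 11.69 and 11.85 in those of K422. The greatest differences in the other direction were those of AURKB (-1.45), CDC6 (-1.37), NUSAP1 (-1.35), UBE2C (-0.95), MCM7 (-0.92) and CDC20 (-0.86). Across scans levels are given without a test: DB had the highest level of the lines for 17 members, OCI-Ly3 for 19, and K422 and HBL-1 for 6 each.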

How the data were processed

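The 48 members and the gene lists were chosen with earlier results of these data known. The authors scanned 24 two-colour Agilent arrays and deposited Feature Extraction output (version 10.5.1.1 for DB and OCI-Ly3, 10.7.3.1 for K422 and HBL-1), in which background-corrected, dye-normalized intensity and log10 of the Cy5/Cy3 ratio are given per spot. The authors' value table, on a log2 scale, was deposited too and was used only as an alternative (r 0.804 to 0.998 with the arrays' own ratios). The sign and base of the ratios were changed to give log2(siFOXP1/siCtrl). After removal of controls and of outlier spots (113 to 469 per array), replicate spots were averaged and the brightest probe stood for each of 30142 genes, as named in the array design (hg18). A mean for each of 8 groups was fitted to all arrays with limma 3.58.1 in R 4.3.3, a line being the mean of its siRNAs, with Benjamini-Hochberg adjustment over all genes. Control levels were log2 Cy5 processed signal after Aquantile normalization, averaged over the same-numbered arrays of a line, taken as 1 siCtrl sample although no source used here says that they share one RNA (r of their siCtrl deviations 0.0894 to 0.765), and tested in limma between lines scanned together. DB and OCI-Ly3 shared a scan, as did K422 and HBL-1, so scan is confounded with line in other pairs. The labels number the replicates, and the study's methods call them independent experiments. Same-numbered arrays of a line deviated together (r 0.102 to 0.566 over the 16554 genes above background in each channel on more than 12 arrays, 0.0468 to 0.284 over all genes), and the number was taken as a pairing from the 16554 genes. Over the 48 members r was 0.161 to 0.930. The main fit treated all arrays as independent, so its SEs and p-values for the members leave this pairing out. The replicate block used 1 consensus correlation over all genes (0.248), not one fitted to the members. In data simulated for the HBL-1 comparison over 29561 genes, 85.1% of genes changed by 0.6 (log2) were called, and 1.49% of those changed by 0.3. The simulated noise was normal, independent between arrays and of the same SD for a gene in all lines. The arrays themselves deviated together, and the S phase members spread more in DB. Those shares therefore do not give the power for the members. Members were named where called, where they changed most in a line, or as named factors. The number of arrays limits precision. Alternatives were normexp background (offset 50) with loess or median centring, filters on dim probes, the mean over probes, replicate and slide blocks, each siRNA alone, and leaving out each array.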

Additional observations from a re-analysis of the deposited data

Results flagged for a closer look

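One array stood apart from the other 5 of its line in a group median: siFOXP1_308 replicate 1 of K422 had a mitotic median of -0.066, against 0.15 to 0.23. It was 1 of 56 groups examined, and chance gives about 1 in 20.

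The silencing effect differed between lines for these members by the limma test of the difference. Between HBL-1 and the other lines NEK2 differed by -0.58, CENPF by -0.59 and BLM by 0.53. With normexp and median centring CENPF and BLM were not called there. Between HBL-1 and K422 the differences were -0.80 for NEK2, -0.64 for CCNB2, -0.58 for CENPF, -0.54 for TOP2A, -0.52 for CENPE, -0.52 for NUSAP1, -0.52 for BUB1 and 0.57 for BLM. Between ABC-DLBCL and GCB-DLBCL lines NEK2 differed by -0.52.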

How the results depend on the processing

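Signs were followed for the list medians and for a set of members named in a line or comparison, not for all members. Of the followed members, none that was called changed sign under the alternatives run. Of the followed results that were not called, 18 did under at least 1. Among them were the K422 mitotic median (normexp and median centring) and the DB medians (mitotic -0.08 to 0.0087 and S phase -0.12 to 0.18 as arrays were left out). E2F2 (-0.20 to 0.028) and MYBL2 (-0.03 to 0.20) in DB were others. Without the limit on size, calls were 2 lower and 2 higher in DB, 2 and 10 in K422, 28 and 2 in HBL-1, 14 lower in OCI-Ly3, 19 lower and 1 higher between subtypes, 21 lower between HBL-1 and K422, and 2, 15, 19 and 4 for DB, K422, HBL-1 and OCI-Ly3 against the other lines. Of the 13258 bright genes, 914 were lower between HBL-1 and K422. Against the other lines, 647 of them were higher and 882 lower for DB, and 577 and 620 for K422. For HBL-1 these were 2020 and 1503, and for OCI-Ly3 529 and 457. At a log2 limit of 1, 0 members remained in HBL-1 or in its comparisons. With normexp and median centring, calls of members were 23 lower in HBL-1, 1 lower in K422, 0 between subtypes, 1 lower and 0 higher between HBL-1 and K422 and 1 for HBL-1 against the others, and the medians were -0.010 (mitotic) and -0.27 (S phase) in K422, -0.48 and -0.54 in HBL-1, and -0.23 and -0.25 in OCI-Ly3. The share of all genes called with that scaling was not counted. With normexp and loess there were 1 lower in K422, 0 between subtypes and 4 between HBL-1 and K422. siFOXP1_308 alone gave 1 lower in DB, K422 and OCI-Ly3, 2 in HBL-1 and a K422 mitotic median of 0.064; siFOXP1_309 alone gave 15 lower in HBL-1 and 1 higher in K422. A slide block gave 1 lower in DB and 2 for K422 against the others, the mean over probes 1 for the latter and any probe 1 for it and 1 higher in HBL-1. The 1 higher in HBL-1 was the dimmer probe of CCNB2 (1.12), which was above background in both channels on 0 arrays. The probe used for CCNB2 was at -0.17 there. With 4 line means 0 members were called between subtypes. With the replicate block (consensus correlation 0.248), 1 member was called for the siRNA difference of HBL-1 against the others, and the 9 calls in HBL-1 and the 0 in the other lines did not move. The limit on size alone kept that 0, since no member mean of those lines reached it. For control levels of HBL-1 against K422, 75th-percentile scaling gave 6 lower and all arrays as samples 5 higher. Leaving out one array at a time gave 0 to 1 lower in DB, 0 to 1 lower and 0 to 1 higher in K422, 6 to 9 lower in HBL-1, 0 to 1 between subtypes, 4 to 10 lower between HBL-1 and K422, 0 to 2 between OCI-Ly3 and DB and for DB against the others, 0 to 3 for K422 and 2 to 4 for HBL-1 against the others, 0 to 1 for the siRNAs in DB, and 3 to 5 higher for control levels of HBL-1 against K422. The 6 and both lowest values of the HBL-1 comparisons came without siFOXP1_309 replicate 1 of HBL-1. FOXP1 in DB had an adjusted p of 0.0793 by the methods' t-test. The cause of these changes was not tested.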
